A study of Mus musculus with 12 samples.

Results

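The genes described here are those whose RNA was highest in mouse lung at postnatal day 5 (P5) among the 4 time-points of the study. They were selected on measured values. In the deposited table of CPM, read counts scaled to the size of each library, the lowest P5 library of a gene had to lie above the highest library of each other time-point, its P5 mean had to be at least 1.3 times each other mean, and its P5 mean had to reach 2 CPM. The rule was met by 192 of the 16152 genes of the counts table (1.19%). Because P5 values chose the genes, every comparison of P5 with another time-point is given below as a description, without a test. The study followed whole lungs of wild-type C57BL/6 mice at the embryonic stages E15.5 and E18.5 and at P5 and postnatal day 8 (P8) by bulk RNAseq, with 3 libraries per time-point, and asked how RNA levels and splicing change as the lung prepares for and adapts to breathing. No group was treated or carried an engineered allele, animals of both sexes were used, and each time-point was represented by littermates, so time-point and litter cannot be told apart and the p-values below measure only the spread between littermates.

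Between these time-points the lung turns from branching tubules into thin-walled sacs, air breathing begins, and the sacs are then divided into alveoli by new septa. AT2 cells of the alveolar epithelium make surfactant, a film of lipid and protein that keeps air spaces open. Endothelial cells build the capillary bed of the septa, and several kinds of fibroblast lay down their matrix and store lipid. A whole-lung level follows both the number of cells of a type and the RNA in each cell, and the 2 cannot be told apart here.

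The libraries held 41337443 to 53901957 counted reads, and the least counted gene of the 192 still had 81 reads in its lowest P5 library. Summed over the 14 genes of an AT2 list, which mark the tissue as lung, the level was 1148 to 2827 CPM before birth and 18584 to 25293 CPM after birth. P8 replicates 1 and 2 stood apart from P8 replicate 3 in marker genes of tissues that lie next to the lung. Thymocyte genes summed to 253, 474 and 29.7 CPM in P8 replicates 1, 2 and 3, fat tissue genes to 453, 873 and 29.9 CPM, and squamous epithelium genes to 1017, 797 and 16.2 CPM. Liver genes were an exception, at 14.8, 131 and 45.4 CPM, with the lowest level in replicate 1. The keratin gene *Krt13* alone was at 334, 256 and 0.888 CPM, and the brown fat gene *Ucp1* at 231, 498 and 9.45 CPM. Heart muscle genes were likewise higher in E15.5 replicates 1 and 2 (1238 and 1543 CPM) than in replicate 3 (68.8 CPM), and fat genes reached 172 CPM in P5 replicate 3. The rule, many ratios of P5 to P8 and the total counts of changed members are therefore also given against P8 replicate 3 alone. Other results that rest on P8, among them fold changes of single genes and counts per role or list, use all 3 P8 libraries.

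The 192 genes spanned P5 means from 2.05 to 2853 CPM with a median of 20.1 CPM. At or above 100 CPM were 41 of them, and 37 were under 5 CPM. Most stood only a little above the next time-point, which was P8 for 174 genes, E18.5 for 12 and E15.5 for 6. The P5 mean was a median of 1.38 times the highest other mean, 103 genes lay under 1.4 times, 44 reached 1.5 times and 6 reached 2 times. Against the prenatal time-points the distance was larger, with a median of 2.44 times the E18.5 mean and 2.99 times the E15.5 mean. Just inside the ratio of 1.3 were *Tnik* (1.301), *Pi4k2b* (1.304) and *Cirbp* (1.304). Just outside were *Snx25* (1.298), *Lipg* (1.299) and *Gm43042* (1.2996). Without any ratio, 818 genes had their lowest P5 library above all others at a P5 mean of at least 2 CPM.

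**Figure D1:**
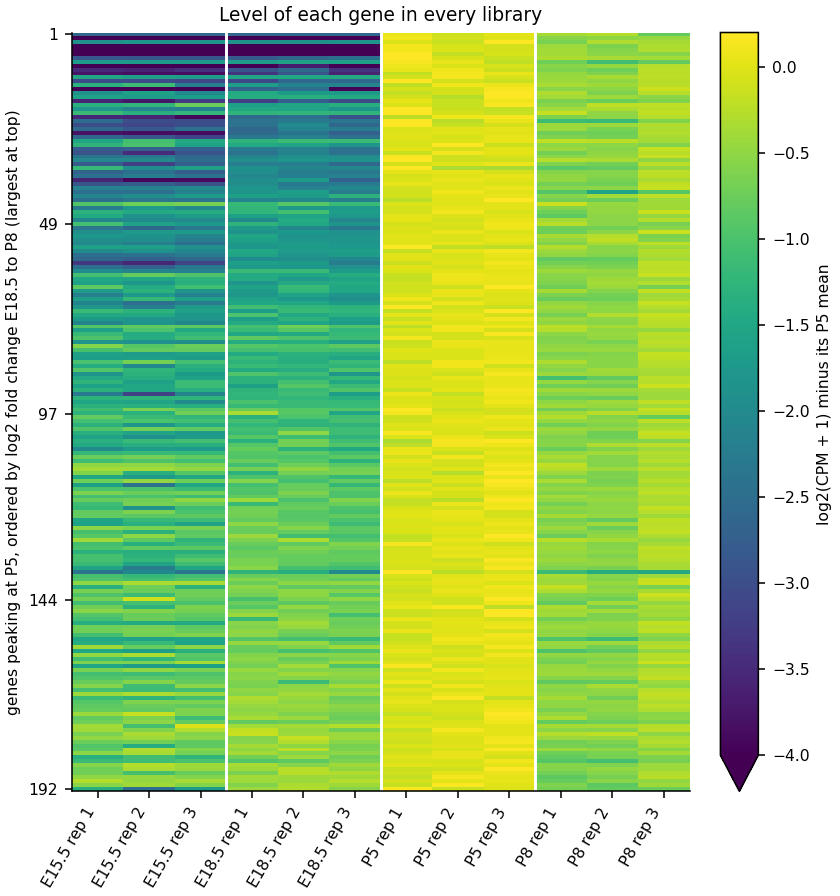
Each row is 1 of the 192 genes peaking at P5 and each column 1 of the 12 libraries, coloured by log2(CPM + 1) minus the P5 mean of the gene, with genes ordered by their log2 fold change from E18.5 to P8. The P5 columns are the brightest by construction, the prenatal columns are darkest in the upper rows, and P8 replicate 3 is brighter than P8 replicates 1 and 2 for most genes.

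How far P8 lay below P5 differed between the P8 libraries. The P5 mean was a median of 1.49 times the level in P8 replicate 1, 1.501 times that in replicate 2 and 1.26 times that in replicate 3. Over all 13775 genes with a P5 mean of at least 2 CPM, the same medians were 1.04, 0.981 and 0.991. A ratio of at least 1.3 was kept by 172 of the 192 genes against P8 replicate 1, by 181 against replicate 2 and by 77 against replicate 3. For 150 of the 192 genes, the highest of the 3 P8 values was that of replicate 3. With P8 replicate 3 as the only P8 library, the rule found 165 genes, of which 77 were among the 192. With P8 replicate 3 left out it found 355, of which 186 were among the 192. The marker levels of other tissues, apart from those of liver, moved with this split, and their part in it was not tested. By the roles described below, 10 of 12 genes of blood and immune cells and 6 of 9 genes of the epithelium kept the ratio against P8 replicate 3, beside 2 of 19 genes of the vessel wall and 0 of 8 genes of fibroblasts and pericytes. Some immune marker lists were also lowest in P8 replicate 3, at 441, 360.2 and 137 CPM in P8 replicates 1, 2 and 3 for neutrophil genes, 513, 641 and 265 CPM for alveolar macrophage genes and 158, 169 and 95.1 CPM for B cell genes. Monocyte and interstitial macrophage genes differed less, at 290, 277 and 265 CPM. Mast cell, basophil, eosinophil and ILC2 genes (186, 179 and 205 CPM) and interferon-stimulated genes (248, 241 and 292 CPM) were highest in replicate 3. The part of these lists in the ratios of the blood and immune genes was not tested.

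**Figure D2:**
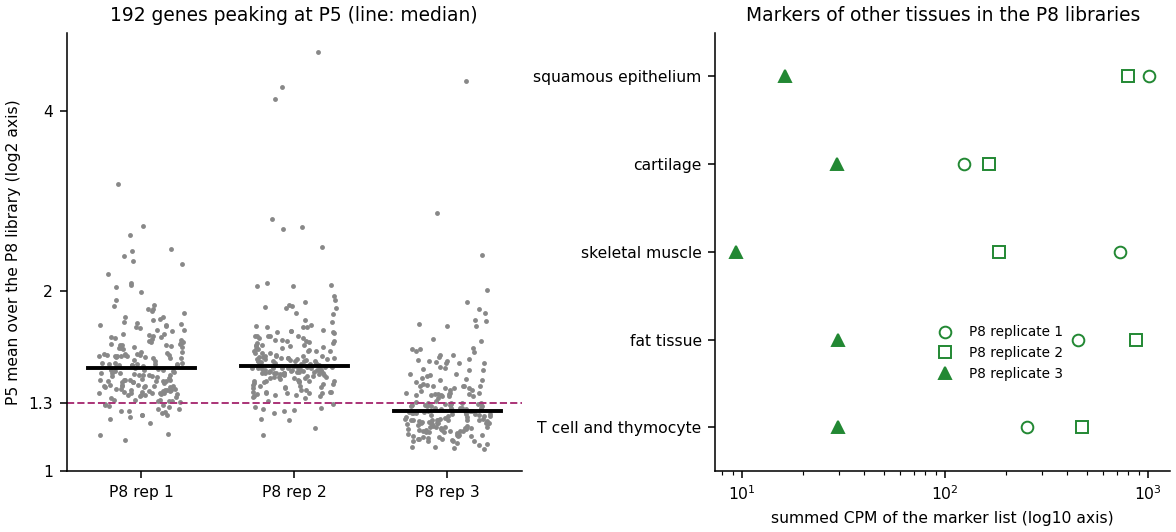
Left, the ratio of the P5 mean to each P8 library (log2 axis) for the 192 genes, with a line at the median (1.49, 1.501 and 1.26) and a dashed line at 1.3. Right, the summed CPM (log10 axis) of 5 marker lists of other tissues in the P8 libraries, in which replicate 3 is the lowest for each list drawn. Liver genes, not drawn, were at 14.8, 131 and 45.4 CPM in P8 replicates 1, 2 and 3.

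Outside P5, nearly all changes called among these genes were rises with age. The rule bounded the levels at E15.5, E18.5 and P8 from above but did not set their order. The 3 comparisons among these time-points were tested with edgeR's quasi-likelihood test over 15994 genes. A call needed an absolute log2 fold change above 1 and a Benjamini-Hochberg adjusted p under 0.05. By requiring P5 above both prenatal time-points, the rule favours genes whose P8 level also lies above them. The shares over all genes include genes that fell from E18.5 to P5, which could not be members. These shares are therefore not a neutral reference for the 192. From E18.5 to P8, 83 of the 192 genes were higher (43.2%) and none was lower, against 19.6% higher and 9.38% lower of all genes tested. The median log2 fold change was 0.83 over the 192 genes and -0.01 over all genes. The count of 0 lower genes was also 0 with DESeq2, and no gene of the 192 was lower at an unadjusted p under 0.05. With P8 replicate 3 as the only P8 library, 93 of the 192 were higher and 0 lower, against 17.8% and 10.9% of all 15763 genes then tested. That fit assumes that the lone P8 library varies like the libraries of the other time-points.

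From E15.5 to E18.5 the changes were smaller, with 21 of the 192 genes higher (10.9%) and 1 lower, against 1.59% and 1.46% of all genes. The 21 include *Cyp1a1*, which entered the test through its P5 libraries and had 0 reads at E15.5 and 8 at E18.5. The median log2 fold change was 0.31 over the 192 genes and -0.01 over all. Across the whole interval from E15.5 to P8, 103 were higher (53.6%) and 0 lower, against 20.9% and 11.5% of all genes, with DESeq2 also giving 0 lower and no gene lower at an unadjusted p under 0.05. Of the 83 genes higher from E18.5 to P8, 16 had already risen from E15.5 to E18.5 and 66 had been called in neither direction. The remaining one, *F830016B08Rik*, fell by 1.17 from E15.5 to E18.5 on the log2 scale (SE 0.38, adjusted p = 0.046) before it rose by 2.61 ± 0.38 to P8. That fall was lost in 11 alternative fits.

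**Figure D3:**
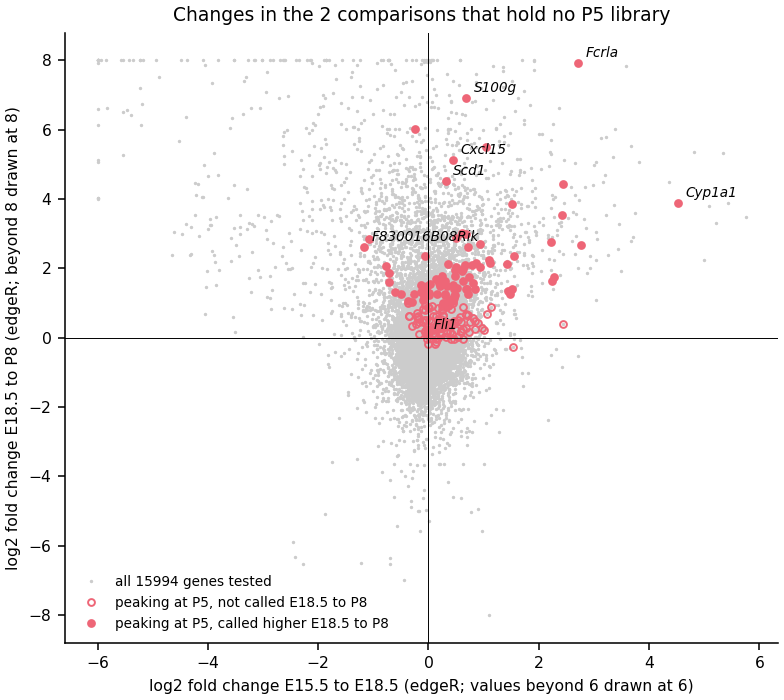
Log2 fold change from E15.5 to E18.5 (horizontal) and from E18.5 to P8 (vertical) by edgeR for all 15994 genes tested (grey) and the 192 genes peaking at P5 (red, filled where called higher from E18.5 to P8). The red points lie mostly above 0 on the vertical axis, up to a fitted 7.91 for *Fcrla*, which rests on 2 reads at E18.5 and depends on the prior count, and 0 of them are called lower there.

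A smaller group had no detectable change outside P5. In 27 of the 192 genes, the adjusted p stayed at or above 0.05 in each of the 3 comparisons without P5, and 16 of these 27 kept the ratio of 1.3 against P8 replicate 3. The clearest was *Fli1*, an ETS transcription factor of endothelial and blood cells, which was at 36.8, 42.4 and 34.8 CPM in the E15.5 libraries, 34.98, 36.6 and 38.6 in those of E18.5, 58.5, 60.2 and 66.9 in those of P5 and 35.3, 37.03 and 39.6 in those of P8. Its 9 libraries outside P5 lay between 34.8 and 42.4 CPM, and the lowest P5 library was at 58.5 CPM. The log2 fold change was -0.04 ± 0.08 (SE, adjusted p = 0.72) from E15.5 to E18.5 and 0.09 ± 0.08 (SE, adjusted p = 0.3) from E18.5 to P8, while the P5 mean was 1.63 times the next highest mean and 1.56 times P8 replicate 3. *Npr3*, the natriuretic peptide clearance receptor, had the next largest ratio of the group above 10 CPM. *Itm2a*, a small membrane protein, *Angpt1*, *Pdcd10*, the protein lost in a form of cerebral cavernous malformation, *Tal1* and *Fkbp7*, a folding enzyme of the endoplasmic reticulum, also belonged to these 27 genes, with P5 means of 221, 76.1, 76.2, 24.7 and 36.6 CPM and ratios of 1.31 to 1.41. *Itm2a* met the rule narrowly, with 195.5 CPM in its lowest P5 library and 194.8 CPM in E15.5 replicate 2. An adjusted p above the cutoff at 3 libraries per time-point does not show that the levels of these 27 genes were equal outside P5.

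Roles were assigned by hand to 65 of the 192 genes after the genes were known, and no test was run on these groups. Beside the counts of these groups and of the lists below stand the shares of all genes tested. From E18.5 to P8 these were 19.6% higher and 9.38% lower. In the smaller groups, a count of 0 lower genes is near that share. The largest group, 19 genes, belongs to endothelium and the vessel wall. From E18.5 to P8, 13 of the 19 were higher and 0 lower, with a median log2 fold change of 1.197. The gain from E18.5 to P5 was a median of 2.94 times. A list of 13 capillary endothelial genes, drawn up apart from this group, held 0 of the 192. In that list 8 genes were higher and 1 was lower from E18.5 to P8. Its summed level was 3274 to 3516 CPM at P5 and 2827 to 3404 CPM at P8, so the libraries overlapped. *Clec14a*, a lectin of the endothelial surface, was at 73.4, 89.5 and 74.9 CPM in the E15.5 libraries, 117, 111 and 98.6 in those of E18.5, 323, 316 and 319 in those of P5 and 226, 218 and 269.8 in those of P8. No P5 library overlapped with any other, P8 replicate 3 was the nearest, and E15.5 and E18.5 did not overlap either. Its P5 mean was 319.7 ± 3.38 CPM (SD, n = 3) and 1.34 times the P8 mean, and it rose from E18.5 to P8 by 1.197 ± 0.10 (SE, adjusted p = 3.4e-07).

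Receptors and surface proteins made up much of this group. *S1pr1*, the receptor through which sphingosine 1-phosphate tightens endothelial junctions, was at 37.5, 43.4 and 35.9 CPM in the E15.5 libraries, 62.9, 51.2 and 48.1 in those of E18.5, 249, 250.1 and 233 in those of P5 and 163, 164 and 209 in those of P8. It was low and close together before birth, highest at P5 and in between at P8, and its log2 fold change from E18.5 to P8 was 1.79 ± 0.12 (SE, adjusted p = 5.7e-08). *Clec1a* and *Nostrin*, the latter a trafficking protein of endothelial nitric oxide synthase, gained most from E18.5 to P5, by 5.14 and 5.11 times. *Ecscr*, an endothelial surface regulator of cell migration, was the only gene of the group besides *Fli1* to keep the ratio of 1.3 against P8 replicate 3 (1.33).

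The angiopoietins, ligands of the endothelial receptor Tek, took different courses outside P5. *Angpt1*, the agonist made by perivascular cells, was at 52.2, 59.7 and 47.2 CPM in the E15.5 libraries, 58.6, 51.01 and 52.4 in those of E18.5, 72.6, 78.9 and 76.9 in those of P5 and 45.4, 48.2 and 58.8 in those of P8. Its E15.5, E18.5 and P8 libraries overlapped, and its log2 fold change from E15.5 to P8 was 0.01 ± 0.10 (SE, adjusted p = 0.92). *Angpt2*, the context-dependent antagonist made by endothelium, was at 6.42, 6.27 and 4.39 CPM in the E15.5 libraries, 9.503, 8.44 and 8.31 in those of E18.5, 19.7, 18.9 and 21.9 in those of P5 and 13.9, 14.9 and 17.3 in those of P8. Here the time-points did not overlap, and the log2 fold change from E15.5 to P8 was 1.51 ± 0.14 (SE, adjusted p = 8.3e-07). *Angpt2* overlaps *Mcph1* on the opposite strand, and whether counting used strand is not given in the sources used here, so *Mcph1* reads, which fell from 27.9 CPM at E15.5 to 9.597 CPM at P8, may be part of its counts.

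Among transcription factors of vessels, *Hey1*, a Notch target of arterial endothelium, was at 22.3, 31.2 and 22.8 CPM in the E15.5 libraries, 23.7, 20.6 and 18.8 in those of E18.5, 78.4, 68.7 and 72.5 in those of P5 and 42.5, 43.8 and 57.3 in those of P8. Its prenatal libraries overlapped, and it rose from E18.5 to P8 by 1.25 ± 0.15 (SE, adjusted p = 8.4e-06). *Tal1*, a helix-loop-helix factor of blood and endothelium, was at 18.1, 19.5 and 17.9 CPM in the E15.5 libraries, 16.4, 18.6 and 17.7 in those of E18.5, 23.5, 25.4 and 25.1 in those of P5 and 17.4, 16.8 and 21.6 in those of P8. P8 replicate 3 came close to the lowest P5 library of *Tal1*, and its ratio to that library was 1.14. A list of 6 lymphatic genes held 2 of the 192. In that list as a whole, 2 genes were higher from E18.5 to P8 and 1 was lower, with a median log2 fold change of 0.59. The lower one was *Mmrn1*, which fell by 1.77 on the log2 scale. *Lyve1*, the hyaluronan receptor of lymphatic vessels, was at 81.4, 78.99 and 76.5 CPM in the E15.5 libraries, 111, 112 and 96.05 in those of E18.5, 267, 309 and 304 in those of P5 and 194, 187 and 252 in those of P8 and rose from E18.5 to P8 by 1.06 ± 0.10 (SE, adjusted p = 1.1e-06). It fell under the fold cutoff without E18.5 replicate 3 (0.98) and without P8 replicate 3 (0.9017). *Reln*, a secreted glycoprotein of collecting lymphatics, stayed under 5 CPM, and its change from E18.5 to P8 did not pass the test (0.82 ± 0.41 SE, adjusted p = 0.089). The calls from E18.5 to P8 of *Kitl*, the ligand of the Kit receptor, and *Rasgrp3*, a Ras activator, rested on fold changes of 1.003 and 1.001, at the cutoff, and were lost in 10 and 9 alternative fits.

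**Figure D4:**
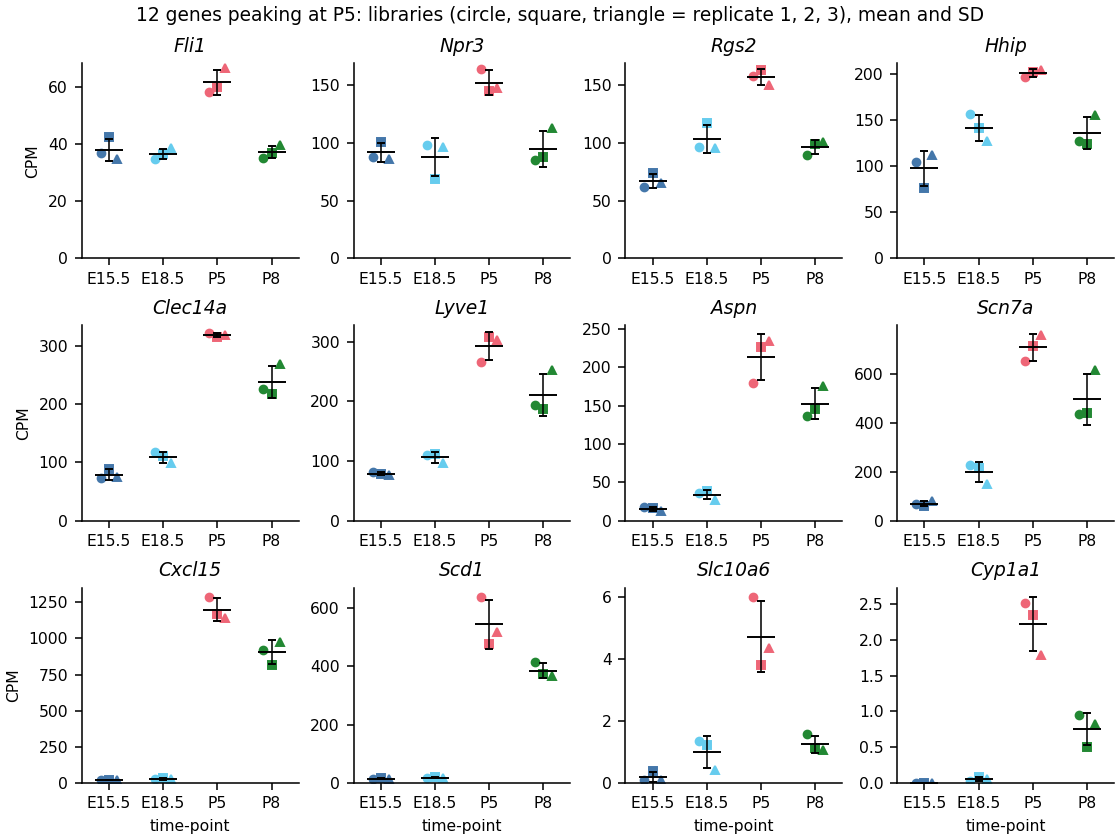
CPM of 12 genes peaking at P5 in the 12 libraries (circle, square and triangle for replicates 1, 2 and 3, bar and whiskers, mean and SD). *Fli1* and *Npr3* differ little outside P5. The means of *Clec14a*, *Lyve1*, *Aspn* and *Scn7a* rise from E15.5 through E18.5. *Cxcl15*, *Scd1* and *Cyp1a1* are near 0 on this scale before birth.

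Fibroblast and pericyte genes numbered 8, of which 5 were higher from E18.5 to P8, 3 were higher from E15.5 to E18.5, and 0 were lower in either. Of all genes tested, 1.59% were higher and 1.46% lower from E15.5 to E18.5. A list of 11 alveolar myofibroblast genes held 2 of the 192, and a list of 12 lipofibroblast and matrix fibroblast genes held another 2. *Aspn*, a collagen-binding proteoglycan of myofibroblasts, was at 17.4, 16.7 and 12.8 CPM in the E15.5 libraries, 35.4, 38.1 and 26.8 in those of E18.5, 179, 226 and 234 in those of P5 and 136, 146 and 175 in those of P8. It rose at each tested step, by 1.103 ± 0.15 (SE, adjusted p = 0.0011) from E15.5 to E18.5 and by 2.25 ± 0.15 (SE, adjusted p = 5.5e-08) from E18.5 to P8. Without E15.5 replicate 3 the first of these was 0.98, under the fold cutoff. The other myofibroblast gene, *Hhip*, a decoy receptor for hedgehog ligands, was at 105, 76.1 and 112 CPM in the E15.5 libraries, 157, 141 and 128 in those of E18.5, 197, 203 and 205 in those of P5 and 128, 124 and 156 in those of P8. Its E18.5 and P8 libraries overlapped and its log2 fold change between them was 0.005 ± 0.13 (SE, adjusted p = 0.98).

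*Scn7a*, a sodium channel gene of lung fibroblasts, was the fourth most abundant of the 192 genes, at 69.5, 59.6 and 80.3 CPM in the E15.5 libraries, 228, 215 and 151 in those of E18.5, 651, 713 and 760.4 in those of P5 and 434, 438 and 616 in those of P8. Every time-point was separate from the others, and the P5 mean was 1.15 times P8 replicate 3. *Scn7a* rose by 1.51 ± 0.17 (SE, adjusted p = 0.00047) from E15.5 to E18.5 and by 1.39 ± 0.17 (SE, adjusted p = 1e-05) from E18.5 to P8. *Tcf21*, a helix-loop-helix factor that marks lipofibroblasts, was at 128, 140.4 and 132 CPM in the E15.5 libraries, 160.2, 146 and 113 in those of E18.5, 288, 260.2 and 281 in those of P5 and 199, 187 and 230.2 in those of P8, with prenatal libraries that overlapped. *Fgf7*, a growth factor for alveolar epithelium, *Notum*, a secreted inhibitor of Wnt ligands, and *Nox4*, an oxidase of smooth muscle and fibroblasts, had P5 means of 16.3, 6.65 and 61.7 CPM. *Higd1b*, a pericyte gene, was at 2.02, 1.34 and 1.42 CPM in the E15.5 libraries, 8.44, 10.1 and 4.505 in those of E18.5, 33.8, 35.9 and 34.6 in those of P5 and 24.6, 21.9 and 27.3 in those of P8 and rose from E15.5 to E18.5 by 2.27 ± 0.26 (SE, adjusted p = 0.00047). In the lists for elastic fibres (22 genes) and for collagens and their modifying enzymes (30 genes), none of the genes measured was among the 192. As 1.19% of all genes met the rule, a count of 0 in such lists is near that share.

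Genes of cyclic GMP signalling and vessel tone formed a group of 8, of which 2 were higher from E18.5 to P8 and 0 lower. These counts are near the shares of all genes tested (19.6% higher and 9.38% lower). Natriuretic peptides and nitric oxide raise cyclic GMP, which relaxes smooth muscle. *Npr3*, whose product removes natriuretic peptides, was at 87.99, 101 and 86.2 CPM in the E15.5 libraries, 98.6, 68.8 and 96.2 in those of E18.5, 164, 145 and 147 in those of P5 and 84.8, 87.4 and 113 in those of P8. The 3 groups outside P5 overlapped, with log2 fold changes of -0.06 ± 0.14 (SE, adjusted p = 0.81) from E15.5 to E18.5 and 0.18 ± 0.14 (SE, adjusted p = 0.26) from E18.5 to P8. *Pde5a*, the phosphodiesterase that breaks down cyclic GMP, was among the 10 most abundant of the 192 genes at 279, 228 and 308 CPM in the E15.5 libraries, 329.8, 323 and 309.6 in those of E18.5, 552, 563 and 587 in those of P5 and 381, 385 and 496 in those of P8. Its P5 mean was 1.14 times P8 replicate 3, the highest library outside P5. *Prkg2*, a kinase activated by cyclic GMP, and *Kcnma1*, the calcium-activated potassium channel of smooth muscle, were lower, at P5 means of 10.4 and 3.68 CPM.

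*Rgs2*, which shortens signalling by vasoconstrictor receptors, was at 61.5, 73.5 and 65.2 CPM in the E15.5 libraries, 96.3, 117 and 95.6 in those of E18.5, 158, 163 and 149.5 in those of P5 and 89.2, 98.9 and 101 in those of P8. All P8 libraries lay close together between 89.2 and 101 CPM, within the E18.5 values or below them, and the P5 mean was 1.55 times P8 replicate 3. From E15.5 to E18.5 it changed by 0.63 ± 0.09 (SE, adjusted p = 0.0011), under the fold cutoff, and from E18.5 to P8 by -0.03 ± 0.09 (SE, adjusted p = 0.79). Receptors of vasoactive mediators were also in the group. *Adora2b*, an adenosine receptor, rose from E18.5 to P8 by 1.95 ± 0.21 (SE, adjusted p = 3.4e-06), and *Cysltr2*, a receptor for cysteinyl leukotrienes, by 2.98 ± 0.32 (SE, adjusted p = 3.7e-06). The related *Cysltr1* changed by 0.66 ± 0.15 (SE, adjusted p = 0.0015) in that comparison, below the cutoff.

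Epithelial genes showed the steepest gains after birth of the groups described, with a median of 16.3 times from E18.5 to P5 over 9 genes, 6 of them higher from E18.5 to P8 and 0 lower. The AT2 list of 14 genes held 3 of the 192. In that list as a whole, 13 genes were higher from E18.5 to P8 and 0 lower, with a median log2 fold change of 4.71. *Cxcl15*, a chemokine secreted by lung epithelium, was the second most abundant of the 192 genes, at 18.7, 21.997 and 19.9 CPM in the E15.5 libraries, 26.1, 32.9 and 23.2 in those of E18.5, 1289, 1168 and 1141 in those of P5 and 921, 813 and 976 in those of P8. Prenatal and postnatal libraries were far apart, the P5 libraries lay above the P8 libraries without overlap, and the log2 fold change between E18.5 and P8 was 5.11 ± 0.15 (SE, adjusted p = 1.9e-10). *Gm43085*, a gene model that begins 193 bases beyond *Cxcl15* on the same strand, moved with it, at 129.6, 114 and 113 CPM at P5 and a log2 fold change of 5.51 ± 0.14 (SE, adjusted p = 8.6e-11) from E18.5 to P8. Read-through from one to the other cannot be told from separate transcription in counts per gene.

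*Lamp3*, a membrane protein of the surfactant-storing lamellar bodies, was at 9.31, 6.88 and 9.32 CPM in the E15.5 libraries, 23.4, 33.8 and 15.4 in those of E18.5, 472, 433 and 426 in those of P5 and 304, 320.4 and 369 in those of P8. It rose by 1.51 ± 0.22 (SE, adjusted p = 0.0016) from E15.5 to E18.5 and by 3.84 ± 0.23 (SE, adjusted p = 2.5e-08) from E18.5 to P8. *S100g*, a calcium-binding protein, was nearly absent before birth, with 3 to 18 reads in a prenatal library, and reached 33.7, 29.2 and 30.9 CPM at P5 and 20.7, 21.5 and 22.5 CPM at P8. *Scd1*, the desaturase that makes monounsaturated fatty acids, was the only one among 28 cholesterol and fatty acid synthesis genes to belong to the 192. It was at 13.8, 16.2 and 12.7 CPM in the E15.5 libraries, 17.3, 18.3 and 17.01 in those of E18.5, 640.1, 477 and 519.6 in those of P5 and 416, 374 and 367 in those of P8, rose from E18.5 to P8 by 4.53 ± 0.14 (SE, adjusted p = 2.8e-10), and kept a P5 mean 1.49 times P8 replicate 3. Over that whole list, 2 genes were higher from E18.5 to P8 and 1 lower, with a median log2 fold change of -0.25. *Sfta2*, a small secreted protein of alveolar epithelium, had risen before birth (1.002 ± 0.14 SE, adjusted p = 0.0011, lost in 4 alternative fits) and changed little from E18.5 to P8 (0.22 ± 0.13 SE, adjusted p = 0.15). *Ros1*, a receptor kinase, rose at both steps, from 4 to 11 reads per E15.5 library to 362 to 607 reads per P8 library.

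The promoter of *Cxcl15* is shown because this gene is among the steepest and most abundant of the 192. It covers 250 bases before to 50 bases after the start of transcription (chr5:90794284-90794583, plus strand, GRCm38.p6, RefSeq), and the capitals mark a TATA box (TATAAA) that begins 27 bases before the start. Of the other motifs looked for, none was found in this window.
*Cxcl15*: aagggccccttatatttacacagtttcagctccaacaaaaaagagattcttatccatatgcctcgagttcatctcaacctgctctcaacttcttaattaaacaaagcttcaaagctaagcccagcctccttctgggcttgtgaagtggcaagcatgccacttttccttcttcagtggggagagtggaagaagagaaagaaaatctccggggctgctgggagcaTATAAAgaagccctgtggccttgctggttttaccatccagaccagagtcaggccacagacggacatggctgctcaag

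Genes of blood and immune cells made up a group of 12, of which 8 were higher from E18.5 to P8 and 0 lower. *Hba-a2*, an alpha globin gene, was the most abundant of the 192, at 923, 906 and 761 CPM in the E15.5 libraries, 802, 876 and 820.2 in those of E18.5, 3698, 2463 and 2397 in those of P5 and 2297, 1921 and 2097 in those of P8. P5 replicate 1 stood well above the other P5 libraries, and the summed level of the erythroid list was also highest in that library (19753 CPM, against 12072 and 13247 CPM in P5 replicates 2 and 3). *Trim10*, a gene of red cell differentiation, followed the same order at P5, with 14.6, 6.98 and 6.82 CPM. Of the 100-base stretches of *Hba-a2* transcripts, 79.5% also occur in *Hba-a1*, and since the authors kept uniquely mapped reads, its level is uncertain.

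*Clec9a*, the receptor by which cross-presenting dendritic cells sense dead cells, was at 2.44, 1.87 and 1.36 CPM in the E15.5 libraries, 3.18, 3.69 and 2.95 in those of E18.5, 20.04, 19.3 and 20.7 in those of P5 and 12.8, 12.2 and 15.4 in those of P8 and rose from E18.5 to P8 by 2.11 ± 0.18 (SE, adjusted p = 3.7e-07). *Clec9a* lies 8 bases from *Clec1a*, a more abundant member, on the opposite strand. It also overlaps *Clec1b* on the same strand, whose mean was 3.19 CPM at P5 and 2.7 CPM at P8. Whether reads of these genes are part of the *Clec9a* counts was not tested. *Mcpt4*, a chymase of connective tissue mast cells, had 2 to 20 reads in a prenatal library and 7.85, 6.34 and 5.85 CPM at P5, with P8 libraries between 4.88 and 5.15 CPM. *Fcrla*, a B cell gene related to Fc receptors, had 0 reads in the E15.5 libraries, 2 reads over the E18.5 libraries and 590 reads over the P8 libraries. The ratio from E18.5 to P8 was 269 with a counting interval of 74.1 to 2224 (95%, exact binomial, counting error only), and P8 was at least 58.9-fold above E15.5 at a floor of 3 reads per library. The P5 mean of *Fcrla* was 2.01 times P8 replicate 3, whose 2.56 CPM was the lowest P8 value. None of the 8 genes of the B cell list was among the 192, where 1.19% of all genes met the rule. Nuclear factor kappa B regulators were represented by *Map3k8*, a kinase upstream of MAP kinases, at 4.03, 2.97 and 2.73 CPM in the E15.5 libraries, 2.52, 3.43 and 3.13 in those of E18.5, 7.11, 7.97 and 8.43 in those of P5 and 6.24, 4.901 and 4.09 in those of P8, and by *Nfkbiz*, an inducible nuclear cofactor, at 8.65, 14.04 and 9.15 CPM in the E15.5 libraries, 16.2, 12.9 and 13.3 in those of E18.5, 22.3, 23.97 and 25.8 in those of P5 and 21.3, 16.03 and 14.97 in those of P8. In both, P8 replicate 3 was the lowest P8 library, and neither change from E18.5 to P8 passed the cutoffs.

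*Ctla2a* and *Ctla2b*, neighbouring genes for small inhibitors of cysteine proteases, are both among the 192. *Ctla2a* was at 15.7, 17.3 and 16.4 CPM in the E15.5 libraries, 20.3, 21.3 and 18.9 in those of E18.5, 77.5, 92.1 and 105 in those of P5 and 56.6, 53.6 and 68.1 in those of P8, and *Ctla2b* at 3.196, 4.29 and 4.54 CPM in the E15.5 libraries, 5.91, 5.59 and 5.02 in those of E18.5, 10.6, 11.2 and 11.3 in those of P5 and 6.61, 5.897 and 9.4998 in those of P8. The P5 libraries of *Ctla2a* ranged widely and those of *Ctla2b* closely. From E18.5 to P8 *Ctla2a* rose by 1.63 ± 0.11 (SE, adjusted p = 5.2e-08), whereas *Ctla2b* changed by 0.48 ± 0.18 (SE, adjusted p = 0.031), below the cutoff. Shared sequence limits both values, since 11.02% of the 100-base stretches of *Ctla2a* and 58.6% of those of *Ctla2b* occur in another gene model. Their promoters are shown to compare the pair (chr13:60936576-60936875, minus strand, and chr13:60897398-60897697, minus strand, both GRCm38.p6 from RefSeq, 250 bases before to 50 bases after the start). Capitals mark an AP-1 site (TGANTCA) that begins 129 bases before the start of *Ctla2a* and 143 bases before that of *Ctla2b*. They also mark a cAMP response element core (TGACGT) 50 and 72 bases before the start. In *Ctla2a* alone, the letters TATAAA occur 190 bases before the start, and whether they act as a TATA box was not tested.
*Ctla2a*: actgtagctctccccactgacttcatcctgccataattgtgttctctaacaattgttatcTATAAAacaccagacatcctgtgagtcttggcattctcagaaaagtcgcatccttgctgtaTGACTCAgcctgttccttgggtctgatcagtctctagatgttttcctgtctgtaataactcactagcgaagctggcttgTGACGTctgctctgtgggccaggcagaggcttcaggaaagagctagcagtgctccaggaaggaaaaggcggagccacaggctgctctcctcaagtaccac
*Ctla2b*: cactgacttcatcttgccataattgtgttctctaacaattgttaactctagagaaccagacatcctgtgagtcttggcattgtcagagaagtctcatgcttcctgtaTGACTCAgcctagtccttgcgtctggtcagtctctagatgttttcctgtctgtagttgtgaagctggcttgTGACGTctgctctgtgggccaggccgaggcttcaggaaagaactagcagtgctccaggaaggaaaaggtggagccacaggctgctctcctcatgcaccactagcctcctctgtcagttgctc

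Beside the sphingosine 1-phosphate receptor, 2 enzymes of the same lipid were among the 192. *Acer2*, a ceramidase of the Golgi apparatus that supplies sphingosine, was at 32.1, 34.9 and 30.3 CPM in the E15.5 libraries, 63.2, 48.5 and 49.1 in those of E18.5, 251, 241 and 235 in those of P5 and 151, 147 and 214 in those of P8. *Sgpp2*, a phosphatase of sphingosine 1-phosphate, was at 1.55, 1.59 and 1.46 CPM in the E15.5 libraries, 1.44, 2.53 and 2.53 in those of E18.5, 24.04, 18.7 and 17.9 in those of P5 and 14.7, 13.9 and 16.6 in those of P8. Both rose from E18.5 to P8, *Acer2* by 1.74 ± 0.14 (SE, adjusted p = 2.8e-07) and *Sgpp2* by 2.87 ± 0.20 (SE, adjusted p = 8.5e-08), and neither kept the ratio of 1.3 against P8 replicate 3 (1.14 and 1.22). *Sgpp2* overlaps *Farsb* on the opposite strand, which was at 71.6 and 58.4 CPM before birth and 29.3 and 36.1 CPM after it.

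A further group of 7 genes encodes ion channel subunits, with 3 higher from E18.5 to P8 and 0 lower. Calcium channel genes were *Cacna1d*, a pore-forming subunit (79.5 ± 6.24 CPM at P5), *Cacna2d1*, an auxiliary subunit (51.3 ± 3.59 CPM), and *Cacnb4*, a cytoplasmic subunit (3.48 ± 0.33 CPM, SD, n = 3). *Kcna2*, a voltage-gated potassium channel, was at 6.13, 2.32 and 4.66 CPM in the E15.5 libraries, 12.7, 13.8 and 11.5 in those of E18.5, 19.7, 15.6 and 17.01 in those of P5 and 10.5, 9.51 and 9.91 in those of P8. Unlike most of the 192 genes it was lower in every P8 library than in every E18.5 library, although the change did not pass the test (-0.28 ± 0.25 SE, adjusted p = 0.33). Its rise from E15.5 to E18.5 did, at 1.54 ± 0.26 (SE, adjusted p = 0.0025). *Kcnj15*, an inward rectifier, and *Trpv6*, an epithelial calcium channel, rose from E18.5 to P8 by 2.14 ± 0.17 (SE, adjusted p = 1.9e-07) and 1.97 ± 0.16 (SE, adjusted p = 2.4e-07).

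The leptin receptor locus contributed a pair of genes. *Lepr*, which encodes the receptor, was at 13.1, 13.1 and 14.5 CPM in the E15.5 libraries, 16.6, 13.04 and 14.6 in those of E18.5, 57.2, 61.4 and 64.3 in those of P5 and 41.4, 41.7 and 54.3 in those of P8, and its neighbour *Leprot*, which encodes a protein that limits receptor delivery to the surface, at 73.9, 74.2 and 66.6 CPM in the E15.5 libraries, 75.9, 85.3 and 81.3 in those of E18.5, 139, 148 and 156 in those of P5 and 107, 109 and 122 in those of P8. They lie 58039 bases apart on the same strand. *Lepr* rose from E18.5 to P8 by 1.702 ± 0.11 (SE, adjusted p = 5e-08) and *Leprot* changed by 0.55 ± 0.06 (SE, adjusted p = 5.4e-06), under the fold cutoff.

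The largest ratios of the P5 mean to the next time-point were found in genes of low level. *Slc10a6*, a transporter of sulphated steroids, had the highest, 3.78, at 0.0807, 0.374 and 0.0983 CPM in the E15.5 libraries, 1.35, 1.21 and 0.403 in those of E18.5, 6.01, 3.799 and 4.34 in those of P5 and 1.56, 1.13 and 1.05 in those of P8. The lowest P5 library was 2.44 times the highest other library, and against P8 replicate 3 the ratio was 4.48. From E15.5 to E18.5 it rose by 2.44 ± 0.58 (SE, adjusted p = 0.012), and from E18.5 to P8 it changed by 0.41 ± 0.49 (SE, adjusted p = 0.47). *Cyp1a1*, the cytochrome P450 induced through the aryl hydrocarbon receptor, was at 0, 0 and 0 CPM in the E15.5 libraries, 0.0205, 0.0766 and 0.0549 in those of E18.5, 2.52, 2.35 and 1.79 in those of P5 and 0.944, 0.506 and 0.822 in those of P8, and its P5 mean was 2.93 times the P8 mean. Its prenatal reads numbered 0 at E15.5 and 8 over the E18.5 libraries, both under the floor of 3 reads per library on average, so no fold is given between them, although a rise was called. That call was lost without E15.5 replicate 1, E15.5 replicate 2 or E18.5 replicate 2 (adjusted p = 0.057, 0.056 and 0.0699 by edgeR). P8 was at least 12.8-fold above E15.5. Of the 11 cytochrome P450 genes measured from a list of 12, *Cyp1a1* was the only one among the 192, and 8 of the 11 were higher from E18.5 to P8 and 1 lower.

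Above 10 CPM, the largest ratio was that of *Dgkb*, a diacylglycerol kinase, at 1.75. *Dgkb* was at 6.44, 5.74 and 7.18 CPM in the E15.5 libraries, 10.9, 9.21 and 9.797 in those of E18.5, 20.8, 18.8 and 19.4 in those of P5 and 9.54, 10.5 and 13.6 in those of P8, and its E18.5 and P8 libraries overlapped. *Fat3*, an atypical cadherin, was at 2.598, 2.24 and 3.46 CPM in the E15.5 libraries, 3.67, 5.55 and 4.36 in those of E18.5, 44.3, 38.3 and 45.6 in those of P5 and 27.1, 24.9 and 27.9 in those of P8 and rose from E18.5 to P8 by 2.63 ± 0.17 (SE, adjusted p = 3.9e-08). *Rapgef5*, an activator of Rap GTPases, was at 48.8, 45.4 and 48.4 CPM in the E15.5 libraries, 76.5, 77.98 and 72.4 in those of E18.5, 300.4, 291 and 307 in those of P5 and 169, 172 and 230.02 in those of P8 with a ratio of 1.57. *Ccdc85a*, *Tcim* and *Klf7*, a Krüppel-like transcription factor, had ratios of 1.598, 1.51 and 1.497, and each of these 6 genes kept at least 1.3 against P8 replicate 3. The most abundant genes not yet named were *Macf1*, which links microtubules to actin, at 1232, 1031 and 1269 CPM in the P5 libraries, *Sh3bgrl* (638 ± 17.7 CPM), *Gyg*, the primer of glycogen synthesis (537 ± 28.1 CPM), and *Selenof*, a selenoprotein of the endoplasmic reticulum (449 ± 28.8 CPM, SD, n = 3).

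Position along the genome was shared by 7 of the 192 genes. *Gm14399*, *Gm2026*, *Gm14418*, *Gm14403*, *Gm14322*, *Gm14325* and *Gm14326* lie in 2.83 Mb of chromosome 2 (GRCm38, 175129493 to 177957297), a stretch of 31 protein coding genes of the counts table, which include *Zfp965*, *Zfp966* and other zinc finger genes. Of the 24 genes there that did not meet the rule, 17 also had their highest mean at P5 (70.8%), beside 19.02% of all 14474 protein coding genes of the counts table. Chromosome 2 as a whole held 8.33% of the 192 genes and 7.81% of all genes. *Gm14399* was at 16.2, 14.1 and 15.4 CPM in the E15.5 libraries, 14.6, 14.5 and 16.3 in those of E18.5, 18.9, 20.2 and 20.5 in those of P5 and 11.1, 13.3 and 14.02 in those of P8, and *Gm14403* at 3.24, 4.29 and 3.697 CPM in the E15.5 libraries, 2.94, 5.07 and 4.34 in those of E18.5, 8.16, 7.91 and 7.38 in those of P5 and 4.47, 4.74 and 5.24 in those of P8. Most of the 7 share sequence with other genes. The share of 100-base stretches that occur in another gene was 4.95% for *Gm14403*, 38.1% for *Gm14418* and 43.5% to 95.2% for the other 5, and for *Gm2026*, the highest, the gene sharing most was *Gm14434*, which is not among the 192. Their counts rest on the reads that map to one place, and the 7 are not independent of each other. The 17 are not separate support either. The stretch was bounded by the outermost of the 7, and *Gm14434* is among the 17. Some of the 17 differed little between time-points at low levels, as *Zfp969* with 1.57 CPM at P5 and 1.47 CPM at E18.5. Elsewhere, *Zfp229*, *Zfp300* and *Zkscan4*, zinc finger genes on other chromosomes, had ratios of 1.35, 1.505 and 1.42.

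Splicing was read for the members that the study's lists of changed events contain, 15 events in 7 genes, as percent spliced in (PSI), the share of transcripts that include an exon or keep an intron. The lists were chosen on these libraries, so the values are a description. For its main analysis the study set aside events of genes whose level changed in the same comparison, since such changes can affect how well splicing is measured. From E18.5 to P5 the mean level rose 3.96 times for *Rapgef5*, 6.37 times for *Aspn* and 2.49 times for *Macf1*. An intron of *Rapgef5* was kept most often at P5. The RNA of *Rapgef5* was also highest at P5, and a link between the 2 was not tested. The PSI of this intron was 37.4, 33.8 and 47.1 at E15.5, 20.8, 29.6 and 43.9 at E18.5, 73.8, 83.5 and 82.96 at P5 and 61.8, 53.6 and 58.3 at P8, on 34.4 to 464 reads per library. The P5 values did not overlap with any others, and the prenatal values overlapped with each other.

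In most of the other events the P5 and P8 values overlapped or lay close together. For 7 exons of *Aspn* the mean PSI rose from 15.3 to 29.4 at E15.5 and 29.7 to 46.5 at E18.5 to 85.1 to 93.9 at P5 and 84.6 to 92.8 at P8. One of them went from 28.1 ± 5.01 to 46.1 ± 6.98, 93.6 ± 1.31 and 92.8 ± 2.75 (mean ± SD, n = 3). *Aspn* overlaps *Cenpp* on the opposite strand, whose level fell from 13.004 CPM at E15.5 to 4.37 CPM at P8. An exon of *Adgrg6*, an adhesion receptor, was included at 26.7 ± 10.2, 22.1 ± 4.47, 52.2 ± 2.29 and 53.99 ± 1.63 PSI. In *Macf1* 3 exons were listed, and each was included less at P5 than at E15.5. The first fell from 74.6 ± 5.98 at E15.5 to 29.9 ± 2.34 at P5 (32.6 ± 3.92 at P8), the next from 66.6 ± 9.69 to 32.8 ± 5.58 (38.2 ± 4.43 at P8), and the last from 94.97 ± 5.25 to 72.6 ± 2.89 (80.9 ± 1.32 at P8). For the last, all P8 libraries lay above all P5 libraries. An intron of *Bvht*, a long noncoding RNA, fell from 56.5 ± 5.99 at E15.5 to 12.9 ± 3.86 at P5 and was at 18.2 ± 7.46 at P8. Events of *Gpm6b*, a membrane glycoprotein, and *Cirbp*, a cold-induced RNA-binding protein, had means of 78.3 ± 7.797 and 68.9 ± 3.31 at E18.5, 84.2 ± 2.24 and 84.4 ± 4.198 at P5 and 87.3 ± 4.802 and 89.1 ± 5.31 at P8.

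**Figure D5:**
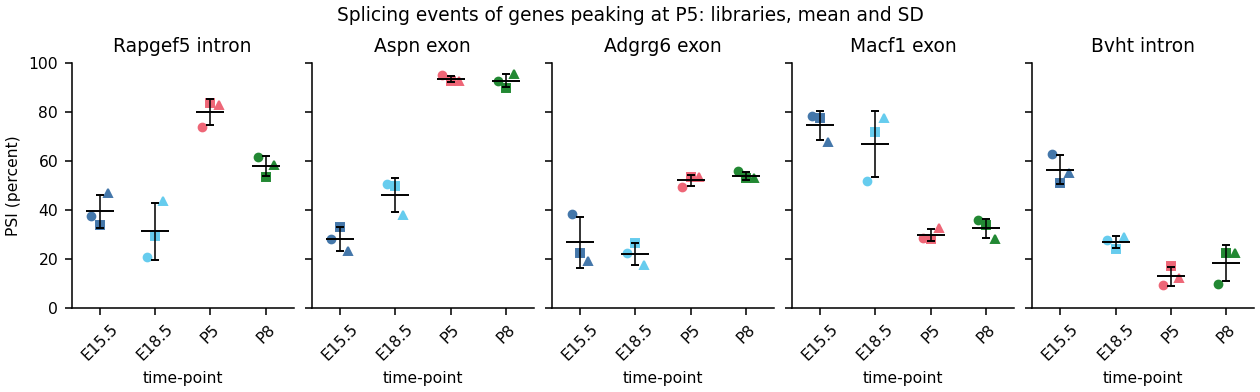
PSI in percent of 5 splicing events of genes peaking at P5 in the 12 libraries (circle, square and triangle for replicates 1, 2 and 3, bar and whiskers, mean and SD, n = 3). The *Rapgef5* intron is highest at P5, the *Aspn* and *Adgrg6* exons are high at P5 and P8 alike, and the *Macf1* exon and *Bvht* intron are lower after birth.

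Promoters were found in the RefSeq table for 134 of the 192 genes and for 11734 genes of the counts table. Where a gene had several promoter entries, its highest CpG ratio and its highest GC content were taken. A motif counted as present if any entry of the gene held it. The values therefore also depend on how many starts are annotated per gene. By this measure the 134 genes were poorer in CpG. A ratio of observed to expected CpG of at least 0.6 was found in 47.01% of them against 70.3% of all. Their median GC content was 57.2% against 61.3%. A GC box (GGGCGG, either strand) was present in 49.3% against 65.6%, the letters ACGTG of the hypoxia response element in 14.2% against 28.01%, and an E-box (CACGTG, which contains ACGTG) in 5.97% against 10.96%. Each of these motifs contains CG, so their shares are not separate from the CpG ratio. The letters TATAAA of the TATA box, at any place in the window, were present in 14.9% against 9.42%. A CCAAT box was present in 38.8% against 42.2%, a cAMP response element core (TGACGT) in 11.2% against 12.3% and an AP-1 site (TGANTCA) in 8.21% against 6.52%. CArG boxes were in 1.49% against 1.62%, glucocorticoid response elements in 0% against 0.145%, and interferon-stimulated response elements in 2.24% against 3.78%. *Rgs2*, with close values at E18.5 and P8 and higher ones at P5, is shown as a GC-rich example (chr1:144004100-144004399, minus strand, GRCm38.p6, RefSeq), in which capitals mark 4 GC boxes, a cAMP response element core 186 bases before the start and a CCAAT box 94 bases before it, some of them on the other strand.
*Rgs2*: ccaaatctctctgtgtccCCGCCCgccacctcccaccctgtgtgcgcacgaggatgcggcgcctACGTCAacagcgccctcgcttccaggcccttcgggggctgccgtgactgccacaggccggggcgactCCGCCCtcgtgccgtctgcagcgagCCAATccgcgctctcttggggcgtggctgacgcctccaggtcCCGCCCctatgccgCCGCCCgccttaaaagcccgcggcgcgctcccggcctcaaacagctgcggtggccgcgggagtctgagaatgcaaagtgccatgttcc

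By the gene lists, 13 of the 192 genes belonged to 8 lists and 179 belonged to none. Of all genes of the counts table, 1.19% met the rule, and no test was run on the list counts. The other 27 lists, with 420 genes in the counts table, held none of the 192. They cover AT1 cells, airway epithelium, capillary endothelium, smooth muscle, mesothelium, nerve, neutrophils, macrophages and monocytes, B and T cells, interferon and immediate early genes, the circadian clock, heat shock, glucocorticoid response, the cell cycle, ribosomal proteins, histones, elastic fibres, collagens, and fat, heart, skeletal muscle, cartilage, squamous and liver tissue.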

How the data were processed

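The deposited counts table holds whole read counts per gene for 12 libraries, and the deposited CPM table holds the same libraries scaled to library size. The authors mapped paired reads uniquely to mm10 with TopHat2 2.1.1 and Bowtie2 2.3.4 and counted them with HTSeq 0.10.0 (Gencode vM14). Whether strand was used is not given in the sources used here. The deposited PSI table, in percent, holds the splicing estimates the authors made per library. Symbols and positions came from Gencode vM21 (GRCm38), which matched 16136 of 16152 gene IDs.

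The rule was applied to CPM as deposited. Counts were fitted over all 12 libraries with edgeR 4.0.16 (TMM, quasi-likelihood, R 4.3.3), keeping genes with at least 1 CPM in 3 libraries. DESeq2 1.42.0 was an alternative. The script was tested on simulated data, in which 180 of 200 genes changed by 1.5 on the log2 scale from E18.5 to P8 were called, with 4 unchanged genes among 15787 tested. Libraries of a time-point differed by more than sampling noise (mean chi-square per gene 13.0 to 75.4), so each counted as 1 replicate.

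The members, lists and roles were chosen with earlier results of these data known. Genes were named by rule: the 15 largest ratios at a P5 mean of at least 10 CPM, the 10 highest P5 means, the 5 largest changes in each direction per tested comparison, up to 6 members per list, 3 genes on each side of the ratio cutoff and members with a listed splicing event. The members described by role, the neighbours of other members, *Slc10a6*, *Cyp1a1* and genes of the chromosome 2 stretch were added after their values were seen.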

Additional observations from a re-analysis of the deposited data

How the results depend on the processing

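The number of genes peaking at P5 was 238 with TMM-normalised CPM (191 of the 192 among them) and 236 with DESeq2 size factors (190 among them). It moved to 412, 44 and 6 at ratios of 1.2, 1.5 and 2, and to 125 at a P5 mean of at least 10 CPM. Leaving out 1 library gave 162 to 355 genes, with 162 without P8 replicate 2 and 355 without P8 replicate 3. P8 replicate 3 as the only P8 library, chosen after seeing the data, gave 165 genes, 77 of them among the 192. Leaving out 1 library gave 15 to 25 members called higher and 0 to 2 lower from E15.5 to E18.5, 75 to 87 higher from E18.5 to P8 (0 lower) and 96 to 108 higher from E15.5 to P8 (0 lower). Without the fold cutoff, 70, 137 and 160 members were higher in these comparisons, and 3, 0 and 0 lower. In the fit without the P5 libraries the 1 lower member from E15.5 to E18.5 was not called (0). With P8 replicate 3 as the only P8 library, assumed to vary like the other groups, 93 members were higher at P8 than at E18.5 (against 17.8% of all genes tested), and 111 were higher than at E15.5 (against 19.7%).

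Replicate numbers did not pair the libraries, since 4 of 18 same-numbered pairs deviated together above a correlation of 0.1 (range -0.29 to 0.27). With a replicate block, 19, 82 and 102 members were higher and 1, 0 and 0 lower. Among named or role genes, 119 called changes were refitted 2244 times, of which 59 refits over 16 changes lost the call and 0 reversed direction. The cause was not tested. Library size alone as scaling moved the median of all genes by less than 0.1 on the log2 scale.

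Detection of smaller changes, or of genes at low levels, was not measured by the simulation. The P5 peak of 115 members did not reach 1.3 against P8 replicate 3.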

Other observations

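The 192 genes included 169 protein coding genes (88.0%, against 89.6% of all genes of the counts table), 11 lincRNA genes, 6 antisense genes, 4 genes of unconfirmed type and 2 processed pseudogenes. Of the 192, 13 lay on chromosome X (6.77%, against 3.33% of all genes). Another gene of the counts table overlapped 31 of them, for 29 on the opposite strand. *Hsd11b1*, which regenerates active glucocorticoid, overlaps *Lamb3*, and *Enho*, which encodes a secreted peptide, overlaps *Dnaic1*. No stretch of 100 bases was shared with another gene for 157 of the 192 genes, and 8 shared at least 50% of theirs, among them *Gm13304* and *Gm21541*, which share 100% and 96.9%.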
